A study of Vulpes vulpes with 48 samples.

Results

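The 100 most abundant genes of the silver fox brain were described among the 12695 genes counted in both the prefrontal cortex and the basal forebrain. A gene's level was its CPM, the count per 1000000 counts of the library. The mean CPM of 12 aggressive cortex libraries and that of 12 aggressive forebrain libraries were averaged, and the 100 genes with the highest average, 0.788% of the genes, were taken as members. The members were thus chosen by aggressive levels, which are given as a description. Members are called by their rank in that average, rank 1 being the highest.

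The series profiled poly(A) RNA of silver foxes (Vulpes vulpes), farm-bred red foxes. One line had been bred for tameness towards people and the other for aggression. All samples came from male adults aged 1.5 years and from the right side of the brain. The groups analysed were tame cortex (12 libraries), aggressive cortex (12), tame forebrain (10) and aggressive forebrain (12). The titles give each library its own number, but do not state whether numbers stand for separate foxes or whether both regions came from the same foxes, so p-values measure the spread between these libraries. No treatment and no unselected line is described in the labels. The RNA is from bulk tissue, in which fewer cells of a type and less RNA per cell cannot be told apart.

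In brain, as in other tissues, a small number of genes supply a large part of the messenger RNA. Such genes are generally known to serve energy metabolism, the cytoskeleton, protein folding, calcium signalling, synaptic transmission and, in glia, myelin. The prefrontal cortex is a layered sheet rich in glutamatergic pyramidal neurons and takes part in the control of social behaviour. The basal forebrain holds cholinergic projection neurons and borders the striatum, and it is known for roles in arousal and motivation. The tables give dog gene identifiers and do not pair them with names, and 0 of the 100 members matched the fox gene table used here. The members could therefore not be assigned to these classes, the dissected tissues could not be checked against marker genes, and no sequence is given.

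Member levels fell off gently from rank 1 to rank 100. The average was 5081 CPM at rank 1, 2382 at rank 10, 1260 at rank 50 and 823 at rank 100, against a median of 33.2 CPM over all genes of both tables. There were 17 members above 2000 CPM, 51 between 1000 and 2000 CPM, and 32 below 1000 CPM. The values just inside and outside the rule lay close together, at 825 CPM for rank 99, 823 for rank 100, and 822 for each of the next 2 genes. CPM is not divided by gene length, so this order is one of shares of reads and not of numbers of RNA molecules.

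**Figure D1:**
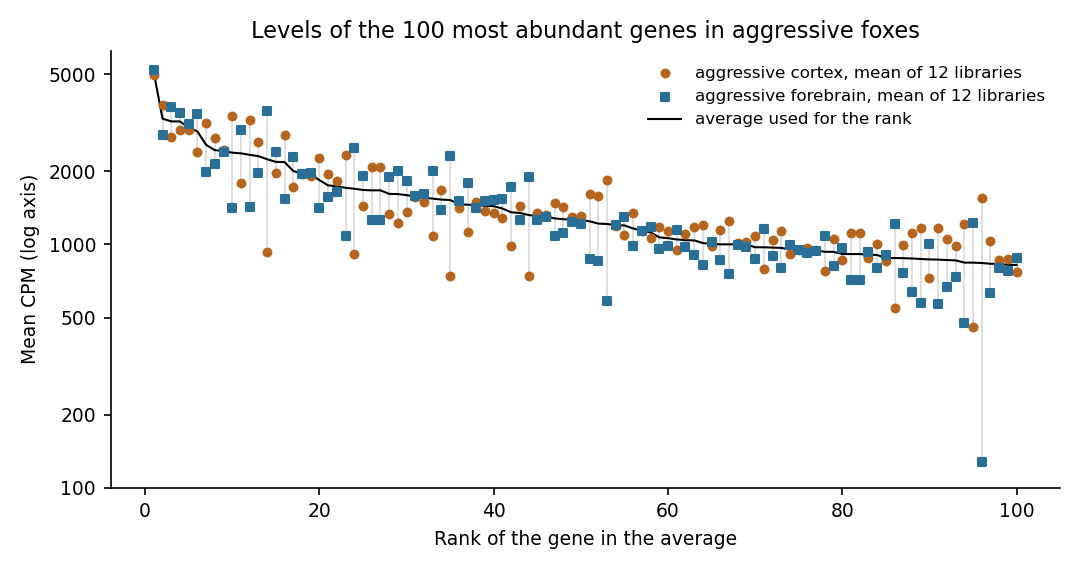
Mean CPM (log axis) of each of the 100 genes by rank, with circles for aggressive cortex and squares for aggressive forebrain (12 libraries each), joined by a grey line, and the average that set the rank as a black line. The average runs from 5081 to 823 CPM, and the widest gap between regions is at rank 96.

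Rank 1 was ENSCAFG00000004958. In aggressive cortex its lowest, median and highest levels were 4273, 5051 and 5457 CPM, and in aggressive forebrain 4373, 5292 and 5966 CPM. The regions overlapped, with 3 forebrain libraries above every cortex library and 2 cortex libraries below every forebrain library. Its deposited counts include values that are not whole, which can happen when reads are shared with another gene. Rank 2 was ENSCAFG00000008557, at 3499, 3784 and 3924 CPM in aggressive cortex and 2561, 2728 and 3173 CPM in aggressive forebrain. Here every cortex library lay above every forebrain library.

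A total of 7 members held values that are not whole, against 5.21% of all genes in both tables. Ranks 26 and 27 had the same values in every library, and so did ranks 81 and 82. Each such pair carries 1 set of values under 2 identifiers, and all of these values are whole. Why they match was not tested, so these members are uncertain. Counts and shares of members given here include both identifiers of each pair.

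Membership depended little on the libraries that set it. With the tame libraries in place of the aggressive ones, 89 of the 100 members stayed, and 98 stayed when tame cortex libraries fox182, fox186, fox187, fox190 and fox191 were also left out, a setting added after the data were seen. Cortex alone kept 88 members and forebrain alone kept 86. A total of 75 members were in the top 100 of both regions. The member placed lowest in 1 region stood at place 1900 in aggressive forebrain.

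The members held a similar share of counts in most libraries. The lowest, median and highest share was 14.4%, 14.8% and 15.2% in aggressive cortex, and 13.8%, 14.3% and 14.5% in aggressive forebrain. In tame forebrain the median was 14.5%, inside the range of aggressive cortex. In tame cortex the lowest, median and highest share was 14.7%, 15.1% and 17.3%. The high end of tame cortex came from 5 libraries. Library fox191 stood at 17.3%, library fox187 at 16.99%, library fox182 at 16.7%, library fox186 at 16.5% and library fox190 at 16.3%, whereas the other 7 tame cortex libraries ran from 14.7% to 15.1%. The next 100 genes by rank also held more in these 5 libraries. They held 8.38% in fox191, 8.24% in fox187, 7.42% in fox182, 7.59% in fox186 and 7.45% in fox190. In the other 19 cortex libraries they held 6.457% to 7.005%. These 5 libraries were set apart in an earlier look at these data, so they are given one by one and not tested as a group.

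The same 5 libraries kept fewer members among their own 100 most abundant genes. Library fox187 kept 58 members, library fox191 kept 61, library fox186 kept 71, library fox182 kept 74 and library fox190 kept 75. The other 19 cortex libraries kept 82 to 92. Counts were also drawn from fewer genes. The genes needed to reach 50% of the counts numbered 584 in library fox187 and 597 in library fox191, then 804 in library fox182, 816 in library fox186 and 862 in library fox190, against 1023 to 1155 in the other 19. The single most abundant gene took 1.21% of the counts of library fox187 and 1.08% of library fox191, against 0.427% to 0.631% in the other 19.

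**Figure D2:**
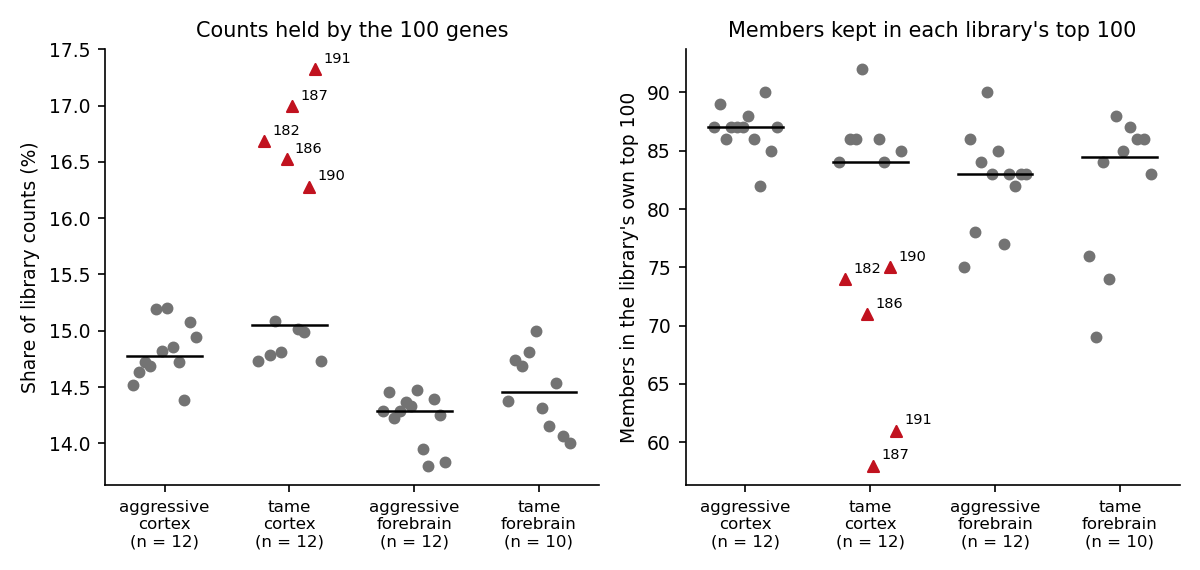
Left, share of library counts (%) held by the 100 genes. Right, number of them among the library's own 100 most abundant genes. Each point is a library, lines are group medians, and red triangles are tame cortex libraries fox182, fox186, fox187, fox190 and fox191, which lie between 16.3% and 17.3% on the left and between 58 and 75 on the right.

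The spread of member levels between libraries was widest where those 5 were included. The coefficient of variation (CV, the SD as a percent of the mean) had a median over members of 8.04% in aggressive cortex, 11.2% in aggressive forebrain and 14.2% in tame forebrain. In tame cortex it was 27.4% over 12 libraries and 7.72% over the 7 that exclude the 5 above. The next 100 genes by rank had median CVs of 7.36%, 9.87% and 11.6% in the first 3 of these groups. All genes of both tables had 12.4%, 13.9% and 15.7%, so the members lay between the next 100 genes and all genes. In aggressive cortex 0 members had a CV over 30%, and in aggressive forebrain 9 did, against 7.94% and 13.2% of all genes.

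In tame cortex 44 members had a CV over 30% (51.9% of all genes), and in tame forebrain 8 did (17.5%). A pair of members, ranks 32 and 96, had a CV over 100% in both forebrain groups and were singled out after their values were seen. Rank 96 stood at 1212, 1528 and 1798 CPM (lowest, median, highest) in aggressive cortex. In the forebrain it ran from 1.63 CPM in aggressive library fox534 to 661 CPM in tame library fox486, a 406-fold span. A total of 15 forebrain libraries were under 30 CPM and 7 were over 100 CPM, of which 3 were tame and 4 aggressive. The lowest forebrain value rests on 16 counts. Its forebrain values therefore split into low and high libraries within both lines, and its place among the members comes from the cortex.

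Rank 32 ran from 407 to 7077 CPM in the forebrain, with 16 libraries under 1500 CPM and 6 over 2000 CPM, 3 tame and 3 aggressive. The highest were aggressive library fox530 at 7077 CPM, tame library fox483 at 6884 CPM and aggressive library fox540 at 5088 CPM. The same 3 libraries were, in the same order, the highest for rank 4, at 6331, 6224 and 5206 CPM, while the lowest forebrain value of rank 4 was 2223 CPM. Over all members, the highest forebrain library was a median of 1.73 times the lowest. In cortex this median was 2.36 over all libraries and 1.35 over the 19 other than the 5 above. In the forebrain the ratio was over 10 for 3 members.

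The regions were compared in the tame foxes, whose libraries the rule did not use. Of the 100 members, 70 differed between forebrain and cortex by edgeR's quasi-likelihood test (threshold 0.05, Benjamini-Hochberg adjustment over 12658 genes), 12 higher and 58 lower in the forebrain. Over all genes tested, 43.5% were called, 21.5% higher and 22.1% lower, and of the next 100 genes by rank, which are also deeply counted, 64 were called. The median log2 fold change, forebrain over cortex, was -0.46 over members and 0.08 over all genes. Tissue and table coincide, so a difference between the tables and one between the tissues cannot be told apart.

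Of the members higher in tame forebrain, ranks 14 and 24 had the smallest p-values. Rank 14 (ENSCAFG00000000016) stood at 598, 1061 and 1518 CPM (lowest, median, highest) in tame cortex and at 2390, 3622 and 6384 CPM in tame forebrain. The groups did not overlap, and the log2 difference was 1.68 (SE 0.215, edgeR adjusted p = 1.58e-06). Rank 24 (ENSCAFG00000016850) stood at 751, 909 and 1288 CPM in tame cortex and 1130, 2482 and 2843 CPM in tame forebrain. All but the lowest forebrain library lay clear of the cortex, and the log2 difference was 1.12 (SE 0.147, edgeR adjusted p = 2.07e-06).

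Of the members lower in tame forebrain, ranks 12 and 88 had the smallest p-values. Rank 12 (ENSCAFG00000009795) stood at 2507, 3460 and 3926 CPM in tame cortex and 863, 1385 and 2126 CPM in tame forebrain, without overlap. The difference was -1.54 on the log2 scale (SE 0.123, edgeR adjusted p = 1.57e-09). Rank 88 (ENSCAFG00000020125) stood at 846, 1108 and 1249 CPM in tame cortex and 500.1, 650 and 784 CPM in tame forebrain, again without overlap. The difference was -0.99 on the log2 scale (SE 0.0857, edgeR adjusted p = 5.95e-09). By size, the highest difference was 2.05 at rank 35 (SE 0.314, edgeR adjusted p = 1.65e-05) and the lowest was -4.00 at rank 96 (SE 0.927, edgeR adjusted p = 0.00135), members outside the naming rule and singled out after their values were seen. In CPM, every tame forebrain library lay above every tame cortex library for 3 members (7.92% of all genes) and below every one for 13 members (4.09% of all genes). In aggressive foxes these counts were 12 (12.4% of all genes) and 27 (7.41%).

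Aggressive foxes gave these ratios in the libraries that chose the members, so they are a description. The log2 ratio of mean CPM, forebrain over cortex, ran from -3.60 at rank 96 to 1.93 at rank 14 with a median of -0.08, against 0.18 over all genes. It was over 1 for 6 members (6.98% of all genes) and under -1 for 8 (4.37% of all genes). The 6 members over 1 all rose in tame forebrain by the test above and the 8 under -1 all fell. The 6 held a median of 0.440% of counts in aggressive cortex and 1.29% in aggressive forebrain. In tame foxes they held 0.432% and 1.23%. The 8 held 1.59% and 0.601% in aggressive foxes, and 1.61% and 0.599% in tame foxes.

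Across the 100 members, tame and aggressive region ratios correlated at r = 0.911, and over all genes tested at r = 0.890. These are correlations across genes, which are not independent replicates. The tame ratio is edgeR's scaled log2 fold change and the aggressive one uses unscaled mean CPM, so they also differ in scaling. Of the 70 members called in tame foxes, 63 had the same sign in aggressive foxes, as did 84 of all 100 members. The share over all genes was not taken. The 7 others had aggressive ratios between 0.01 and 0.10. Of these, 6 were above the range of the other 19 cortex libraries in all 5 libraries named above, as were 47 of all 100 members. Without those 5 libraries, 75 members were called, 18 higher and 57 lower (57.7% of all genes, 30.4% higher and 27.3% lower), 59 of them called in both fits. The median of the members was then -0.22, and 72 of the 75 had the same sign in aggressive foxes, as did 89 of all 100 members. The correlation with aggressive ratios across members was then r = 0.984.

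Single members moved with those libraries as well. Rank 1 differed between the regions of tame foxes by -0.66 on the log2 scale (SE 0.213, edgeR adjusted p = 0.0155) and by -0.10 without the 5 libraries (edgeR adjusted p = 0.329). Rank 2 gave -0.52 (SE 0.0971, edgeR adjusted p = 0.000153) and -0.58 without them (edgeR adjusted p = 2.14e-06). For ranks 14, 24, 12 and 88 the values without them were 2.0, 1.39, -1.46 and -0.89, all past the threshold (largest edgeR adjusted p = 8.63e-07).

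**Figure D3:**
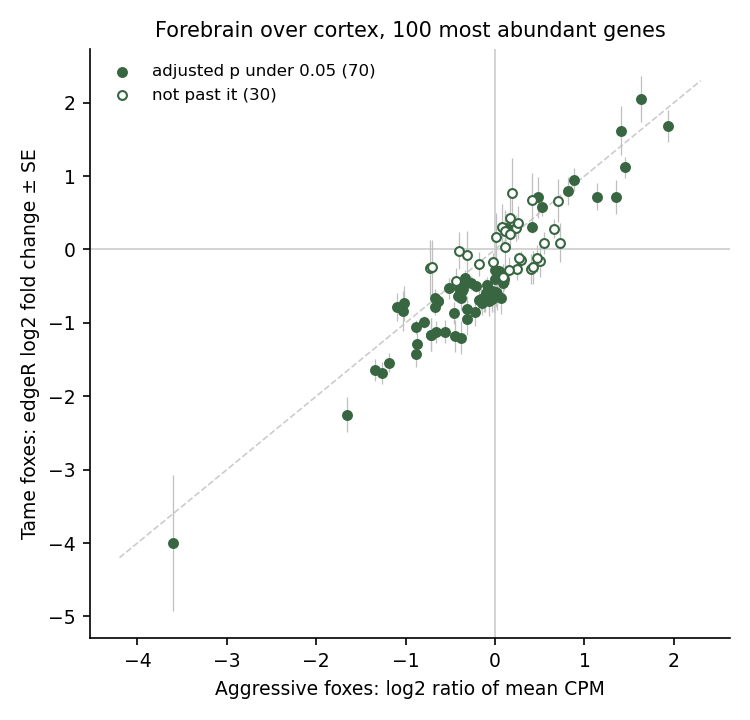
Forebrain over cortex log2 ratio of each of the 100 genes in aggressive foxes (x, ratio of mean CPM) and tame foxes (y, edgeR log2 fold change with SE). Filled circles are the 70 genes past an adjusted p of 0.05, open circles the 30 others, and the dashed line marks equal values. Most of the genes lie below that line, and the axes differ in scaling.

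In the prefrontal cortex the 5 libraries departed from the others at most members. Each member's level, scaled with edgeR's TMM factors (TMM CPM), was set against the range of the other 19 cortex libraries. In library fox187, 57 members were above that range and 32 below, where 39.8% and 43.2% of all genes were. Library fox191 had 60 above and 28 below, against 39.1% and 42.2%. Library fox182 had 61 and 23 (31.4% and 34.3% of all genes), library fox186 had 57 and 19 (27.9% and 31.4%), and library fox190 had 55 and 12 (23.2% and 26.6%). In each of the 5, a larger share of members than of all genes was above the range and a smaller share was below it, which has no test here.

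A total of 47 members were above the range in all 5 (17.6% of all genes) and 12 were below it in all 5 (24.1% of all genes). With TMM scaling 1 member was above in some and below in others (1.33% of all genes), and 4 were inside the range in all 5 (8.59% of all genes). With CPM on column sums the first 2 counts were 40 and 17, against 12.4% and 26.3% of all genes. The count of members above in some and below in others depended on the scaling, at 7 on column sums (2.28% of all genes) and 8 on totals without the members (2.58%). With CPM on column sums library fox187 had 49 members above and 42 below (28% and 51.2% of all genes), and library fox191 had 50 and 36 (26.5% and 50.4%).

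The 47 members held 6.58% to 7.60% of counts in the other 19 cortex libraries. They held 12.7% in library fox187, 12.5% in library fox191, 9.997% in library fox182, 9.91% in library fox186 and 9.43% in library fox190. The 12 members held 1.45% to 1.92% in the other 19. They held 0.152% in library fox187, 0.204% in library fox191, 0.459% in library fox182, 0.647% in library fox186 and 0.722% in library fox190. Since both sets were picked for lying outside the other 19 in all 5 libraries, the direction of these shares is fixed by that choice and they are a description. In the forebrain libraries the 47 held 5.86% to 6.97% and the 12 held 1.37% to 1.89%.

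Ranks 100 and 3 had the lowest median log2 difference over the 5 in TMM CPM, taken from each member's median in the other 19 cortex libraries. Rank 100 (ENSCAFG00000002413) had 590, 761 and 942 TMM CPM (lowest, median, highest) in the other 19. It had 48.9 in library fox182, 80.9 in library fox186, 47.3 in library fox187, 118 in library fox190 and 54.0 in library fox191. All 5 values lay below the other libraries, at log2 differences from their median of -2.68 to -4.01. In tame forebrain the same gene stood at 787, 919 and 1063 CPM. Rank 3 (ENSCAFG00000009537) had 2206, 2721 and 3616 TMM CPM in the other 19, and 420, 1020, 358, 616 and 313 TMM CPM in libraries fox182, fox186, fox187, fox190 and fox191, all below the range.

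Ranks 11 and 95 had the highest median log2 difference over the 5 in TMM CPM. Rank 11 (ENSCAFG00000004617), whose counts include values that are not whole, had 4477, 2943, 4867, 2315 and 5026 TMM CPM in libraries fox182, fox186, fox187, fox190 and fox191. The other 19 had a median of 1613 but reached 5857 in tame library fox185, so none of the 5 was above their range. Rank 95 (ENSCAFG00000013973) had 885, 482.8, 926, 462 and 882 TMM CPM in the same libraries. The other 19 ran from 289 to 839 with a median of 390, so libraries fox182, fox187 and fox191 were above the range and the other two inside it. Rank 1 was above it in all 5, at 7850, 7233, 16180, 7110 and 14010 TMM CPM against 4056 to 5215 in the other 19.

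**Figure D4:**
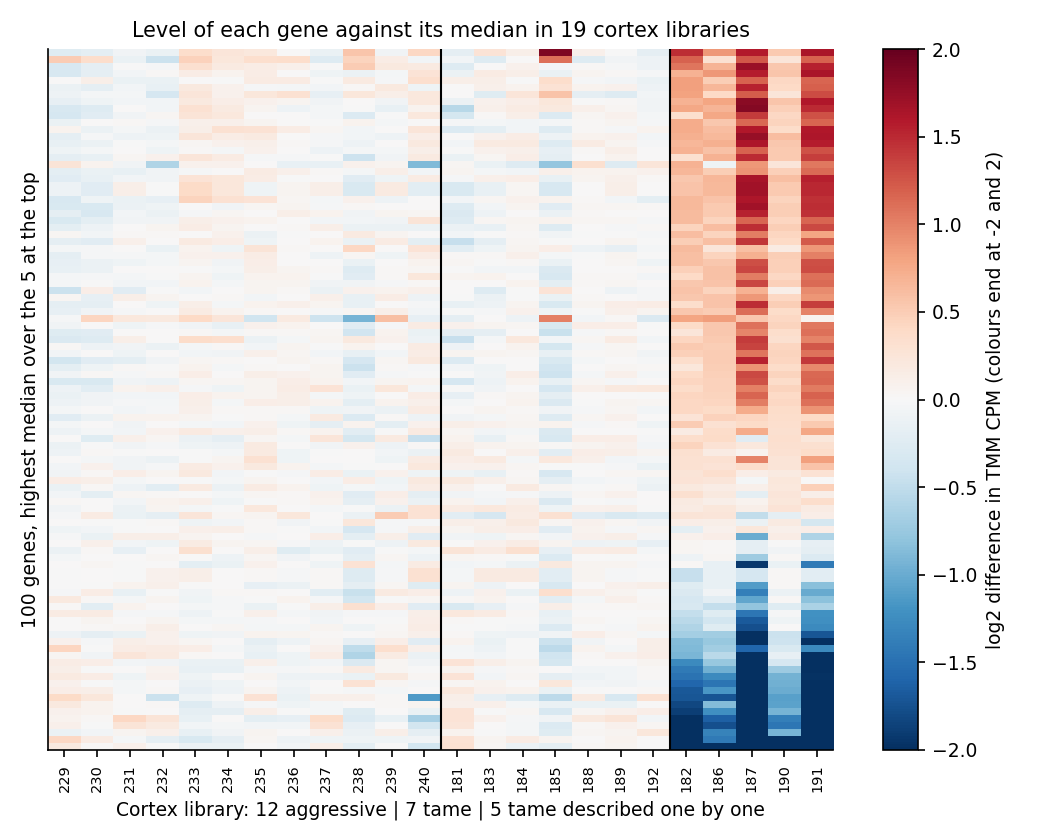
Each row is 1 of the 100 genes and each column a cortex library. Colour gives the log2 difference in TMM CPM from the gene's median in 19 cortex libraries, and black lines separate 12 aggressive, 7 tame and the 5 tame libraries. The 5 columns at the right are red for most genes and blue for a block at the bottom, darkest in libraries fox187 and fox191.

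The lines were compared last. In the cortex 0 members passed an adjusted p of 0.05 (edgeR over 12705 genes, 0.433% of all genes called), and the smallest adjusted p of a member was 0.0900. DESeq2 called 10 members, all higher in tame foxes, where it called 5.54% of all genes, 4.78% as higher. At an unadjusted p under 0.05 there were 53 members higher and 3 lower in tame foxes, against 27.7% and 6.92% of all genes, or 34.6% in either direction. Limma-voom gave 39 members higher and 19 lower, against 18.5% and 25.7% of all genes, and called 0 members after adjustment. The median log2 fold change, tame over aggressive, was 0.28 over members and 0.02 over all genes. The next 100 genes by rank were close to the members, with a median of 0.22 and 9 genes called by DESeq2. The aggressive libraries enter both the rule and this comparison.

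Without the 5 libraries the median of the members lay near 0. With 7 tame libraries, 0 members were called (0.235% of all genes), 3 had an unadjusted p under 0.05, 1 higher and 2 lower, against 7.09% of all genes (3.97% higher and 3.12% lower). The median over members was -0.0013 on the log2 scale. Rank 1 stood at 4367, 5305 and 12090 CPM (lowest, median, highest) in tame cortex, with a log2 difference from aggressive cortex of 0.58 (SE 0.194, edgeR adjusted p = 0.0900), which was 0.01 without the 5 (edgeR adjusted p = 0.991). Rank 11 stood at 1435, 1624 and 2528 CPM in aggressive cortex and at 1456, 2143 and 6309 CPM in tame cortex. Its log2 difference of 0.77 (SE 0.231, edgeR adjusted p = 0.0900) became 0.38 (edgeR adjusted p = 0.833).

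In the forebrain 0 members passed the threshold (edgeR over 12915 genes, 0.0929% of all genes called; DESeq2 called 0 members and 0.41% of all genes). At an unadjusted p under 0.05 there were 6 members, 4 higher and 2 lower in tame foxes, against 11.5% of all genes (5.74% higher and 5.8% lower). The median log2 fold change was 0.01 over members and 0.01 over all genes, and members ran from -0.25 to 0.66. The highest was rank 95, at 432, 1301 and 2019 CPM in aggressive and 739, 1335 and 6494 CPM in tame forebrain (SE 0.316, edgeR adjusted p = 0.430). The groups overlapped, with tame libraries fox483, fox484 and fox485 above every aggressive library. Without fox483, the highest of them, the log2 difference of rank 95 was 0.21 (edgeR adjusted p = 0.832).

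Whether the line difference varied with the region was tested directly. For the interaction, 0 members and 0.0% of all genes passed the threshold (edgeR over 12695 genes, smallest member adjusted p = 0.327; DESeq2 called 0 members and 0.0158% of all genes). At an unadjusted p under 0.05 there were 35 members, 3 higher and 32 lower, against 14.6% of all genes (3.58% higher and 11% lower). The split of members past that p depended on the method, since limma-voom gave 12 members higher and 13 lower, against 17% and 5.61% of all genes. The split of signs changed little with the method, with 36 members above 0 and 64 below in edgeR, and 37 and 63 in limma-voom. Of all genes, 52.0% were above 0 in edgeR and 53.7% in limma-voom. In edgeR the median was -0.20 over members, -0.255 over the next 100 genes by rank and 0.02 over all genes. Without the 5 libraries edgeR gave 0 members against 6.10% of all genes, and the median over members was 0.03. The split of signs then turned, with 60 members above 0 and 40 below, against 53.3% of all genes above 0. For no member was the line difference shown to differ between cortex and forebrain.

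**Figure D5:**
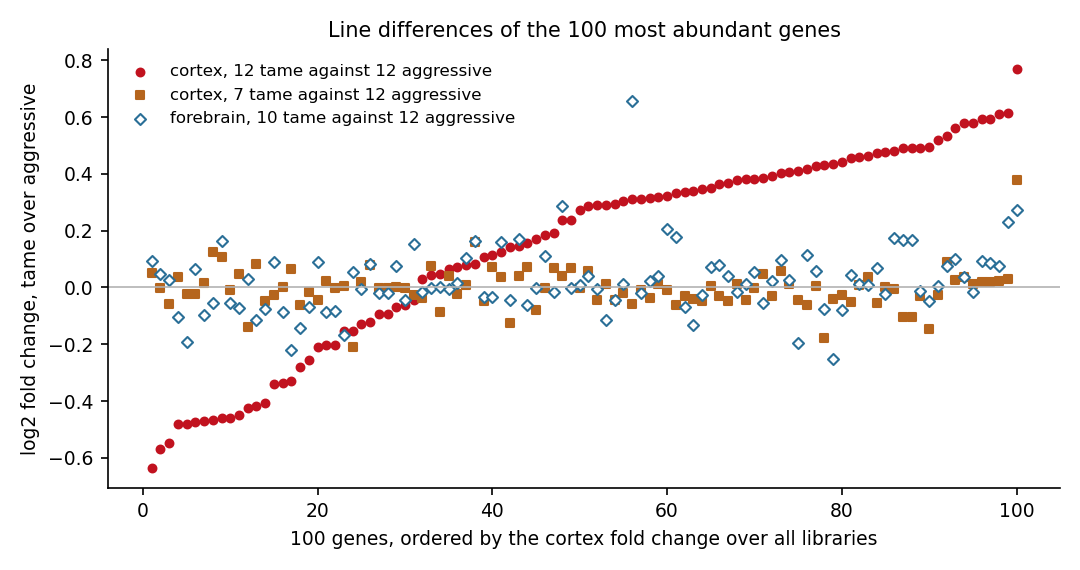
Tame over aggressive log2 fold change (edgeR) of each of the 100 genes, ordered by the cortex value over all 24 libraries (red circles), with the cortex value without the 5 libraries (brown squares) and the forebrain value (open diamonds). The red values run from -0.64 to 0.77, while the brown ones run from -0.21 to 0.38.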

How the data were processed

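Estimated counts per gene for 24 cortex and 22 forebrain libraries, deposited by the authors as 1 table per region with dog gene identifiers per the file headers, were used. Of 48 labelled samples, tame forebrain libraries fox488 and fox490 were not analysed here. The submitters' processing notes name CASAVA 1.8.2, FastQC, Trimmomatic, BWA, bedtools and edgeR and the build canFam3. The counting tool is not given in the sources used here. Counts were rounded for tests. Genes were kept with filterByExpr (minimum count 10), scaled by TMM, and tested with edgeR 4.0.16 (robust quasi-likelihood, R 4.3.3) on whole tables, Benjamini-Hochberg over all genes. SE is the absolute log2 fold change over the root of F. Alternatives used DESeq2 1.42.0 and limma 3.58.1. The tests were checked on simulated data in which no libraries departed from the rest as the 5 cortex libraries do, so the check does not cover that case. Library totals, in units of 1000000 counts, ran from 6.23 to 17.2 (cortex) and from 6.25 to 13.6 (forebrain). A member had a median of 14130 counts in cortex and 11880 in forebrain, so at such counts counting error is small beside the spread between libraries. This does not cover the low forebrain counts of rank 96, which went down to 16. Identifiers are printed for ranks 1 and 2, up to 2 members per direction by p in each test, and the 2 highest and 2 lowest in the 5 cortex libraries. The members, the lists and the 5 libraries were chosen with earlier results of these data known. A total of 18 lists of gene symbols could not be used.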

Additional observations from a re-analysis of the deposited data

Results flagged for a closer look

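In tame forebrain, 15 sets of 10 values were checked for a library standing apart from the rest. There were 3 such values. At 1 in 20 per set, chance would give 0.75 in independent sets. These sets overlap and some are members named from these data, so that number is not a fair yardstick here. Tame library fox541 was the lowest for rank 24, at 1130 CPM, and the highest for rank 12, at 2126 CPM. Tame library fox483 was the highest for rank 95, at 6494 CPM. Their causes were not tested.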

How the results depend on the processing

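Of 71 alternatives for the main counts and shares, 62 stayed within 1.5 times the count or 1 SD of the share. In the cortex, DESeq2 called 10 members between the lines against 0. The 20 highest members held a median of 5.24% of counts in aggressive cortex, 5.45% in tame cortex, 5.10% in aggressive forebrain and 5.27% in tame forebrain, and the members whose values are all whole held 13.3%, 13.5%, 12.5% and 12.7%, as fewer genes are summed. Alternatives for named members covered the region value of ranks 1, 2, 12, 14, 24 and 88 and the cortex line value of ranks 1, 2, 11 and 95. Of these 88 values, 83 kept direction and side of the threshold. Size was not part of that label. The cortex line value of rank 1 counts as kept although it went from 0.58 to 0.01 without the 5 tame cortex libraries. The region value of rank 1 was -0.41 with library totals that leave out the members (edgeR adjusted p = 0.0517), -0.10 without the 5 tame cortex libraries, and -0.08 without these and forebrain library fox483, added after the data were seen. The cortex line value of rank 95 turned from 0.31 to -0.0596 without the 5, and that of rank 11 passed the threshold with DESeq2 (adjusted p = 0.0385). Totals without the members called 58 members between the regions of tame foxes, and 6008 of all 12658 genes. The medians were -0.27 over members and 0.26 over all genes.

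The labels do not pair the regions, so library numbers were not taken as pairs. Deviations of the 9 tame library pairs that share the last 2 digits of their numbers correlated from -0.29 to 0.34, with 4 over 0.1. These values cannot show whether both libraries of a pair came from the same fox, since regions of the same fox need not vary together. Limma-voom with this replicate block called 69 members between regions (6042 of all 12658 genes), and 69 without it (6142 of 12658).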
